A study of Homo sapiens with 4 samples.

Results

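The genes of the 3 families of high mobility group (HMG) proteins, HMGA1 and HMGA2, HMGB1 to HMGB3 and HMGN1 to HMGN5, were followed in PANC-1, a cell line from a pancreatic cancer, and in PZT-2, a clone of PANC-1 with stable knockdown of the histone variant H2A.Z. Members were chosen by gene symbol, and all 10 had values among the 15221 genes measured, through 33 of 31077 transcripts. Each cell line gave 2 libraries of stranded mRNA, grown at passage p12-p13 in DMEM medium with 10% FBS. The control PANC-1 cells were wild type and carried no shRNA vector. PZT-2 is 1 clone, chosen for low H2A.Z RNA and protein and for slow growth, and taken for sequencing because of its senescent features. It carries shRNAs against H2A.Z.1 and against both H2A.Z.2 isoforms, brought in by lentivirus and selected with puromycin. Differences due to the knockdown, the vector, the puromycin selection and the choice of the clone therefore cannot be told apart in these libraries. The study calls the 2 libraries of a cell line biological replicates, and neither it nor the labels say whether they were separate cultures, so that p-values measure only the spread between these libraries.

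HMG proteins are abundant non-histone proteins that bind chromatin without strong sequence specificity and change its shape. HMGA proteins bind the minor groove of AT-rich DNA through AT-hooks and are highest in embryonic and cancer cells, HMGB proteins bend DNA with paired HMG boxes, and HMGN proteins bind the nucleosome core and counteract its compaction by linker histone. HMGA1 and HMGA2 are frequently overexpressed in pancreatic cancer, and HMGB1 also acts outside the cell as a danger signal.

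Normalized counts are read counts per gene or transcript scaled to a library of average size, and TPM is the level per transcript length relative to all transcripts of the library. Counts printed for a gene or transcript are normalized unless called recovered, that is, not scaled for depth. Log2 fold changes set PZT-2 against PANC-1, SE is their standard error, and a gene passed when its p-value from edgeR, adjusted over all genes tested, was below 0.05. RNA was taken from whole cultures, so that fewer cells with a transcript and less RNA per cell cannot be told apart. H2AFZ, the gene of H2A.Z.1, had normalized counts of 6390 and 6034 in PANC-1 and of 2212 and 2258 in PZT-2, and its log2 fold change was -1.47 (SE 0.0565, adjusted p = 6.25e-05). H2AFV, the gene of both H2A.Z.2 isoforms, had 3343 and 3452 in PANC-1 and 2590 and 2718 in PZT-2, giving a log2 fold change of -0.36 (SE 0.0569, adjusted p = 0.0057). Recovered depth was 12861486 and 15717581 counts for the PANC-1 libraries and 13955524 and 14175671 for those of PZT-2. Of 6 ductal and epithelial markers, all had values in PANC-1, led by KRT8, KRT18 and KRT19. Of these 6, 4 passed as lower in PZT-2, beside 13.7% of all genes tested. CDH1 (E-cadherin) was at 0 in 1 PZT-2 library and at 0.527 TPM in the other. The log2 fold changes of CDH1, KRT8 and KRT18 were -3.79 (adjusted p = 0.0103), -1.17 (adjusted p = 6.01e-05) and -0.81 (adjusted p = 2.02e-04). The size of that of CDH1 rests in part on the 0, and its other PZT-2 library, at 18.8 counts, was below the 116 and 148 of PANC-1. Of 7 fibroblast markers only COL1A1 and PDGFRB had values, with a summed level of 10.7 and 11.9 TPM in PANC-1 and 4.19 and 3.33 TPM in PZT-2, and the log2 fold change of COL1A1 was -1.75 (adjusted p = 4.61e-04). Of 6 leukocyte and endothelial markers CD68 and PECAM1 had values, CD68 between 117 and 130 TPM and PECAM1 at no more than 0.236 TPM.

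Sequences that separate forms of these genes, or lie where their RNA can be controlled, are shown first. HMGA1 makes 2 proteins by splicing, HMGA1a of 107 residues and HMGA1b of 96, and the longer one holds 11 more residues. The coding sequence around these bases is shown because the reads of HMGA1 are divided between transcripts of both forms. It lies on the plus strand of GRCh38, the bases in capitals at chr6:34240883-34240915 in a coding exon, and capitals mark the 33 bases present in HMGA1a alone, with 24 coding bases on each side.
HMGA1: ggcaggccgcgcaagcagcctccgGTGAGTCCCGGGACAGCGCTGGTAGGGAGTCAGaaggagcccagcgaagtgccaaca

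HMGA2 is the textbook target of the let-7 microRNAs, which bind sites after its stop codon. The mature sequence of let-7a is given with its seed, bases 2 to 8, in capitals, a seed shared by all 9 let-7 and miR-98 sequences of RefSeq searched. The complement of this seed, CTACCTC, was searched on the transcript strand, and its 4 matches in the 3003 bases after the stop codon of transcript NM_003483 (chromosome 12) are shown with capitals on the match.
let-7a: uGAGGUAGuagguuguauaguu
HMGA2 match at base 21 after the stop codon: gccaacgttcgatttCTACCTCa
HMGA2 match at base 1256: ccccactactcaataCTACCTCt
HMGA2 match at base 1668: ttgacttgcaaagacCTACCTCc
HMGA2 match at base 2521: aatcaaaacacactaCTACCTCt

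The other 3 transcripts of HMGA2 with values end in shorter tails of 106, 397 and 533 bases and held no match. Among the other members, the leading transcript of HMGA1 held 1 match and those of the other 8 genes held none. In the same length of sequence after the stop codon, 17% of 3048 other genes held at least 1 match and 0 of them held 4 or more. A match is a description of the sequence, and let-7 itself was not measured in these libraries.

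HMGB3 and HMGN2 were the 2 members that passed the test as lower in PZT-2, and bases before their start sites are shown for that reason, both on the plus strand, from RefSeq on GRCh38.p14. Capitals mark the CCAAT box (CCAAT) and the GC box (GGGCGG), searched on both strands. For HMGB3 the 200 bases at chrX:150983085-150983284 are given, which end ahead of the HMGB3 exon that GENCODE 29 places there, and for HMGN2 the 250 bases at chr1:26472190-26472439. The HMGB3 bases lie inside the span of the gene, chrX:150980507-150990771, so that they precede an internal start, and bases before the outermost position are not shown.
HMGB3: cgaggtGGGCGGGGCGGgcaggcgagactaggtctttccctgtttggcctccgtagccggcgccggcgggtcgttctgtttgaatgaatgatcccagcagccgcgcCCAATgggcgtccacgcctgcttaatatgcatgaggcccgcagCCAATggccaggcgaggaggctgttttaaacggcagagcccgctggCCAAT
HMGN2: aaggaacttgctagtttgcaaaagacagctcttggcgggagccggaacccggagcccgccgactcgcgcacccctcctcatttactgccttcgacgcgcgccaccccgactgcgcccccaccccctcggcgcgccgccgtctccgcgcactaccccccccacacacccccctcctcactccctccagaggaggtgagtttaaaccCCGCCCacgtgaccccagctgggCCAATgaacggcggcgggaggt

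The HMGB3 sequence held 3 CCAAT boxes and 2 GC boxes, which overlap, and the HMGN2 sequence held 1 of each. RefSeq lists a second start of HMGB3, also inside the gene span, and the 250 bases before it, at chrX:150984141-150984390, held 0 CCAAT boxes and 10 GC boxes. Across all 35116 start sites, 32% held a CCAAT box and 42.6% a GC box in the 250 bases before the start. Of the 8 members with an entry, 6 held a CCAAT box, 6 a GC box and 0 a TATA box (TATAAA, 10.7% of all start sites) at 1 or more of their 12 starts. TTTGAA, the core of the cell cycle homology region, was in 2 members, HMGB1 and HMGB3, and in 13.3% of all start sites. A member was counted if any of its starts held the box, while the shares over all start sites count each start alone. The member counts and these shares are therefore unlike measures and cannot be compared directly.

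Of the 10 members, 1 rose and 2 fell in PZT-2 by edgeR's quasi-likelihood test with adjustment over all 15101 genes tested. HMGA1 was the member that rose, HMGB3 and HMGN2 fell, and the other 7 did not pass. The background was wide: 28.4% of all genes tested passed, 14.7% higher and 13.7% lower, so that 3 of 10 is close to the share among all genes. Over the 10 members the libraries of the cell lines did not overlap for 8, 5 with PZT-2 above and 3 below, and 66.3% of all genes tested were separated in this way. All 10 members passed the filter on low counts. The median log2 fold change of the members was 0.12, beside 0.000995 over all genes tested. Under log2(TPM + 1) and limma-trend the genes that passed were split as 2370 higher and 1446 lower, against 2221 and 2069 here, and with 0.1 in place of 1 as 2309 and 1402.

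Per length, HMGA1 led with 955 to 1206 TPM over the 4 libraries, followed by HMGN2 with 706 to 931 TPM and HMGN1 with 383 to 463 TPM. HMGB1 had 146 to 174 TPM and HMGB2 138 to 146 TPM. HMGB1 was above HMGB2 within each of the 4 libraries, by 1.02 and 1.13 times in PANC-1, where the ranges of the 2 genes overlapped, and by 1.24 and 1.20 times in PZT-2. HMGN4, HMGB3 and HMGA2 came next, with 86.4 to 104, 62.5 to 115 and 78.1 to 91.8 TPM. This order is by the mean over all 4 libraries: HMGB3 was above both HMGN4 and HMGA2 in both PANC-1 libraries and below both in both PZT-2 libraries. HMGN3 had 31.6 to 41.6 TPM and HMGN5 0.352 to 0.846 TPM. Summed over the 10 genes, the level was 2877 ± 2.74 TPM for PANC-1 (SD, n = 2) and 2962 ± 41.2 TPM for PZT-2 (SD, n = 2). Over all genes tested the median log2 fold change was 0.045 on log2(TPM + 1) and 0.0572 on log2(TPM + 0.1), against 0.000995 on counts. TPM thus ran higher in PZT-2 over genes in general, and the difference between the sums was not tested. HMGA genes made up 36.2% ± 0.223 (SD, n = 2) of this sum in PANC-1, against 43.2% ± 0.059 (SD, n = 2) for PZT-2. HMGB genes made up 14.3% ± 0.68 and 12.7% ± 0.0673, and HMGN genes 49.4% ± 0.904 and 44.1% ± 0.126 (SD, n = 2 each).

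HMGA1 (chr6:34236873-34246231 on GRCh38.p14, as for every gene position below), the AT-hook protein highest in proliferating and transformed cells, had normalized counts of 14554 and 14062 in PANC-1 and of 17057 and 17467 in PZT-2. Both PZT-2 libraries were above both PANC-1 libraries. The log2 fold change was 0.27 (SE 0.0438, adjusted p = 0.00599), a rise of 20.6%. Without PZT-2 replicate 2 it was 0.25 with an adjusted p of 0.0739, and for the most abundant transcript alone 0.24 with an adjusted p of 0.0765, so that the call was lost under both.

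HMGA1 had 12 transcripts with values, and NM_145899, of the 107-residue form, carried 61.3% and 57.6% of its TPM in PANC-1 and 58.2% and 58.7% in PZT-2. Its log2 fold change was 0.23 (SE 0.063, adjusted p over transcripts 0.183). The next, NM_002131, carried 12.4% to 17.5%. NM_145901 carried 1.03% and 8.54% in PANC-1 and 9.95% and 9.82% in PZT-2, and NM_001319078 carried 7.41% and 5.82% in PANC-1 and, below NM_145901, 5.62% and 4.02% in PZT-2. NM_145902 carried 6.7% and 0.947% in PANC-1 and 0.814% and 1.73% in PZT-2. The replicates of PANC-1 thus differed in how reads were divided between minor transcripts. NM_145905 carried 4.36% to 4.61% with a log2 fold change of 0.27 (SE 0.0648, adjusted p = 0.156), and NM_145903 carried 1.08% to 2.71%. The remaining 5, NM_001319077, NM_001319079, NM_001319080, NM_001319081 and NM_001319082, each held at most 2.16%. Summed by protein, the 7 transcripts of the 107-residue form held 73.7% and 73.8% of HMGA1 TPM in PANC-1 and 76.0% and 76.5% in PZT-2. The 5 transcripts of the 96-residue form held 253 and 250 TPM in PANC-1 and 285 and 283 TPM in PZT-2, and those of the 107-residue form 708 and 704 TPM in PANC-1 and 901 and 923 TPM in PZT-2. Both sums were higher in both PZT-2 libraries, and the difference between the forms was given as a description only. The usage test for HMGA1 gave an adjusted p of 1.

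HMGA2 (chr12:65824460-65966291), the AT-hook protein that let-7 holds low in adult tissue, had normalized counts of 2448 and 2840 in PANC-1 and of 2366 and 2559 in PZT-2, and the cell lines overlapped. The log2 fold change was -0.10 (SE 0.0858, adjusted p = 0.420). The value rested on single libraries: it was -0.21 (adjusted p = 0.0275) without PANC-1 replicate 1 and 0.000959 without PANC-1 replicate 2. NM_003483, the transcript with the 4 let-7 matches shown above, carried 94.8% and 97.2% of HMGA2 TPM in PANC-1 and 94.9% and 93.2% in PZT-2. The 3 transcripts without a match, NM_003484, NM_001300918 and NM_001300919, had 5 to 32 counts each. The usage test gave an adjusted p of 1. Within a library HMGA1 stood 11.4 ± 1.35 times (SD, n = 2) above HMGA2 per length in PANC-1, against 14.4 ± 0.712 times (SD, n = 2) for PZT-2.

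Of 9 tested genes of the LIN28 and let-7 axis, 3 were higher and 2 lower, beside 14.7% and 13.7% of all genes tested. Their median log2 fold change was -0.13, beside 0.000995 over all genes. IGF2BP2, an RNA-binding protein that HMGA2 is known to activate, changed on the log2 scale by 0.51 (SE 0.0689, adjusted p = 0.00321), with counts of 2252 and 2073 in PANC-1 and 3187 and 2965 in PZT-2. IGF2BP3 and ARID3B changed on the log2 scale by 0.36 (adjusted p = 0.00848) and 0.36 (adjusted p = 0.0323). LIN28B, which blocks let-7 maturation, was low, with 75.4 and 67.8 counts in PANC-1 and 24.2 and 23.7 in PZT-2, giving a log2 fold change of -1.57 (SE 0.236, adjusted p = 0.00459). DROSHA, the nuclear nuclease of microRNA processing, had -0.32 (adjusted p = 0.0229).

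HMGB1 (chr13:30456704-30617597), the ubiquitous HMG-box protein and extracellular signal, had normalized counts of 4906 and 5376 in PANC-1 and of 5450 and 5570 in PZT-2. Its libraries did not overlap, and the log2 fold change was 0.10 (SE 0.0607, adjusted p = 0.275). It was 0.16 (adjusted p = 0.0456) without PANC-1 replicate 2 and 0.0307 without PANC-1 replicate 1. NM_002128 carried 96.3% to 97.9% of its TPM, and NM_001313892 had 66.4 and 77.2 counts in PANC-1 and 142 and 112 in PZT-2, giving a log2 fold change of 0.82 (SE 0.28, adjusted p = 0.263). NM_001313893 and NM_001363661 had 19.1 to 42.7 counts in each library.

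Of the 12 receptors and partners of extracellular HMGB1, 7 had values and were tested, with a median of -0.12. Of these, 2 were higher and 1 lower, beside 14.7% and 13.7% of all genes tested. THBD (thrombomodulin), which binds HMGB1, had 168 and 117 counts in PANC-1 and 579 and 643 in PZT-2, giving a log2 fold change of 2.12 (SE 0.164, adjusted p = 5.20e-04). SDC1 (syndecan-1) had 0.32 (adjusted p = 0.00716), and CD24, a partner that dampens the signal of HMGB1, had -1.67 (SE 0.178, adjusted p = 0.00144). AGER, the receptor RAGE, had 1.33 to 2.42 TPM in the 4 libraries, with an adjusted p of 0.8. TLR2, TLR4, TLR9, CXCL12 and CXCR4 were not among the genes with values.

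HMGB2 (chr4:173331376-173334358), the HMG-box protein linked to proliferation and to the SET complex, had normalized counts of 1577 and 1568 in PANC-1 and of 1440 and 1523 in PZT-2. Both PZT-2 libraries were below PANC-1, with a log2 fold change of -0.09 (SE 0.0611, adjusted p = 0.348). Its transcripts differed in their shares. NM_002129 carried 73.7% and 80.3% of its TPM in PANC-1 and 81.6% and 84.2% in PZT-2, and NM_001130688, which encodes the same 209 residues, carried 20.4% and 16.9% in PANC-1 and 12.7% and 10.4% in PZT-2. The counts of NM_001130688 were 310 and 256 in PANC-1 and 176 and 152 in PZT-2, with a log2 fold change of -0.79 (SE 0.181, adjusted p = 0.147 by edgeR and 0.00946 by DESeq2). NM_001130689 carried 2.85% to 5.98%. The usage test for HMGB2 gave an adjusted p of 0.4. With the most abundant transcript alone the log2 fold change of HMGB2 was 0.0155.

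Of the 5 SET complex partners of HMGB2, 1 was higher and 1 lower, beside 14.7% and 13.7% of all genes tested. ANP32A, an inhibitor of protein phosphatase 2A, changed on the log2 scale by 0.26 (adjusted p = 0.0418), and APEX1, the base excision repair endonuclease, -0.45 (SE 0.0567, adjusted p = 0.00259). Of 12 proliferation markers, 1 was higher and 4 lower, with a median of -0.22, while 28.4% of all genes tested passed in either direction. TOP2A (topoisomerase II alpha), CCNB1 (cyclin B1) and BIRC5 (survivin) changed on the log2 scale by -0.73 (adjusted p = 0.004), -0.49 (adjusted p = 0.00161) and -0.37 (adjusted p = 0.0042), and MCM2, a subunit of the replicative helicase, 0.33 (adjusted p = 0.00683). The clone had been chosen in part for slow growth. How far these markers and HMGB2 or HMGB3 moved together was not tested.

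HMGB3 (chrX:150980507-150990771), an HMG-box protein of stem and progenitor cells, had the largest change among the 10 members by fold and passed at the lowest adjusted p. Its normalized counts were 3060 and 3106 in PANC-1 and 1644 and 1667 in PZT-2, and all PZT-2 values lay below all PANC-1 values. The log2 fold change was -0.90 (SE 0.0548, adjusted p = 2.61e-04), a fall to 0.537 of the level in PANC-1. In every alternative and when any 1 library was dropped it passed, with values between -0.97 and -0.83. HMGB3 was the only HMGB gene to pass. The TPM ratio of HMGB1 to HMGB3 was 1.38 ± 0.0746 in PANC-1 and 2.76 ± 0.0214 in PZT-2, and that of HMGB2 to HMGB3 1.29 ± 0.0188 and 2.26 ± 0.072 (SD, n = 2 each), given as descriptions.

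The fall of HMGB3 lay mainly in NM_005342, which held 89.9% and 89.5% of HMGB3 TPM in PANC-1 and 89.8% and 81.0% in PZT-2. Its counts were 2742 and 2784 in PANC-1 and 1470 and 1341 in PZT-2, with a log2 fold change of -0.98 (SE 0.0639, adjusted p = 0.0604 by edgeR and 4.69e-34 by DESeq2). NM_001301228 had 316 and 323 counts in PANC-1 and 112 and 281 in PZT-2, the PZT-2 libraries differing more than the cell lines did. NM_001301229 had 0 and 14.5 counts in PANC-1 and 59.3 and 40.4 in PZT-2. The usage test for HMGB3 gave an adjusted p of 0.817.

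HMGB3 lies on chromosome X, and the chromosome as a whole was lower in PZT-2. Of the 474 other tested genes of chromosome X, 170 (35.9%) were lower and 30 (6.33%) higher, with a median log2 fold change of -0.29. The 20 neighbours of HMGB3, the 10 nearest tested genes on each side, spanned 3.97 Mb. They had a median of -0.55, with 10 lower and 2 higher. The value of HMGB3 minus the median of its chromosome was -0.61 on the log2 scale, and 44 of the 474 genes had a lower value. The part of the chromosome in the fall of HMGB3 was not tested. HMGN5 also lies on chromosome X, where its 20 neighbours, spread over 24.5 Mb, had a median of -0.51.

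**Figure D1:**
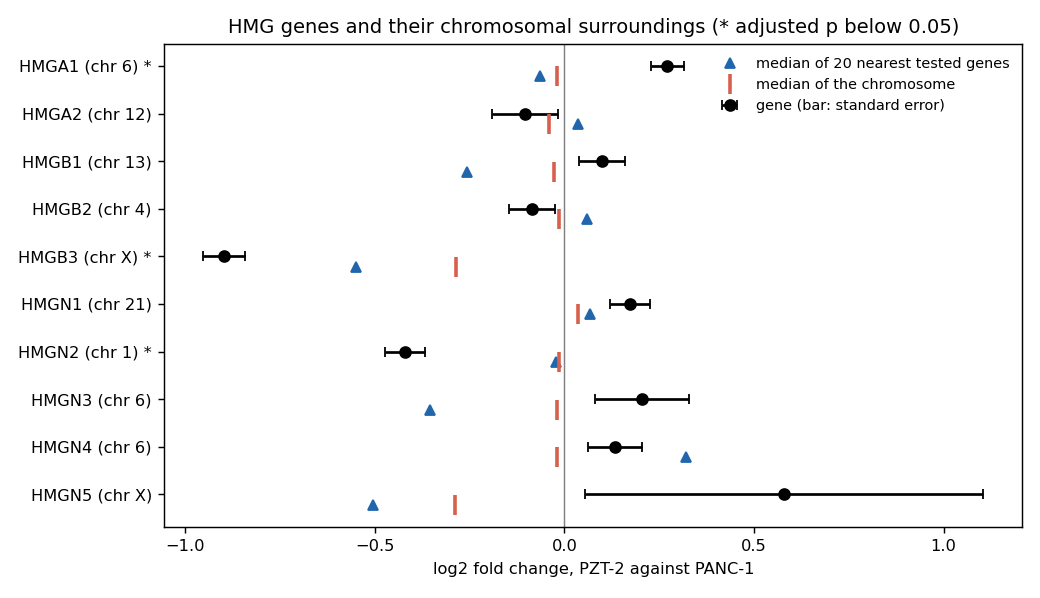
Log2 fold change of each HMG gene (circle, bar 1 standard error) with the median of its 20 neighbours (triangle) and of its chromosome (vertical mark). Neighbours are the 10 nearest tested genes on each side, over spans of unlike length. HMGB3 lies beyond both marks, which are themselves below 0 on chromosome X, while for HMGN2 both marks are near 0.

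HMGN2 (chr1:26472440-26476642), the most abundant nucleosome-binding HMGN, had normalized counts of 13888 and 12860 in PANC-1 and of 9994 and 9996 in PZT-2. Both PZT-2 libraries were below both PANC-1 libraries, with a log2 fold change of -0.42 (SE 0.0525, adjusted p = 0.00245), and it fell by 25.3%. It passed in every alternative, between -0.48 and -0.36. Its 20 neighbours on chromosome 1, over 0.849 Mb, had a median of -0.02, with 2 higher and 2 lower. Chromosome 1 had a median of -0.01. HMGN2 has 1 transcript with values, NM_005517. Tested as a transcript it had an adjusted p over transcripts of 0.081 by edgeR and 5.04e-14 by DESeq2. Of its 31-base words 56.7% also occur in transcripts of other genes in GENCODE 29, which names 36 HMGN2 pseudogenes, against 34.7% for HMGN1, 21.1% for HMGB1, 22.1% for HMGA1, 10.4% for HMGB3 and 0.335% for HMGN4. Counted only in RefSeq-matched transcripts of other genes that have values in these data, the shares were 30.3% for HMGN2, 2.51% for HMGN1, 6.87% for HMGB1, 2.75% for HMGA1, 0.368% for HMGB3 and 0% for HMGN4. Reads of shared words could be assigned to more than 1 gene. The transcripts that kallisto was given by the authors are not the GENCODE ones counted here.

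HMGN1 (chr21:39342315-39349088), the nucleosome binder on chromosome 21, had 3608 and 3596 in PANC-1 and 3983 and 4134 in PZT-2. The cell lines did not overlap, with a log2 fold change of 0.17 (SE 0.0523, adjusted p = 0.0516), just short of the threshold. Within a library HMGN2 stood 2.34 ± 0.125 times (SD, n = 2) above HMGN1 per length in PANC-1, against 1.55 ± 0.0413 times (SD, n = 2) for PZT-2.

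HMGN3 (chr6:79201245-79234682), which exists in a long and a short form, had 232 and 196 in PANC-1 and 240 and 252 in PZT-2, with a log2 fold change of 0.21 (SE 0.124, adjusted p = 0.271). NM_004242 of the 99-residue form had 111 counts in both PANC-1 libraries and 113 and 110 in PZT-2. NM_138730 of the 77-residue form had 101 and 71.7 in PANC-1 and 104 and 119 in PZT-2. NM_001201362 had 14.5 to 22.1 counts. The 99-residue form held 53.4% and 61.2% of HMGN3 TPM in PANC-1 and 53.2% and 49.4% in PZT-2, so the replicates of 1 cell line spread as widely as the cell lines differed. HMGN3-AS1, an antisense gene, shares 13.5% of the 31-base words of HMGN3. The usage test gave an adjusted p of 1.

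HMGN4 (chr6:26538366-26546933), an HMGN2-like gene on chromosome 6, had 1347 and 1244 in PANC-1 and 1370 and 1467 in PZT-2, with a log2 fold change of 0.13 (SE 0.0714, adjusted p = 0.219). Its 20 neighbours had a median of 0.32, with 5 higher and 1 lower. Those of HMGN3, also on chromosome 6, had a median of -0.35, with 1 higher and 8 lower. The neighbours of HMGB1 had a median of -0.26, those of HMGA1 -0.06, of HMGA2 0.03, of HMGB2 0.06 and of HMGN1 0.07. HMGN5 (chrX:81113699-81201913) had 5.63 and 8.13 counts in PANC-1 and 8.05 and 12.9 in PZT-2, with a log2 fold change of 0.58 (SE 0.525, adjusted p = 0.462), and the test did not pass.

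Over all transcripts, 45 of 30403 passed by edgeR (0.148%; 5614 at an unadjusted p under 0.05 and 4400 by DESeq2), and 0 of the 33 HMG transcripts did, with 5 by DESeq2. Changed transcript usage was called in 37 of 6929 genes (0.534%; 792 at an unadjusted p under 0.05), and in 0 of the 6 HMG genes with several transcripts, of which HMGB2 alone had an unadjusted p under 0.05.

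Of the other HMG-box proteins, 19 of 20 with values were tested, with a median of -0.02. Of these, 4 were higher and 3 lower, beside 14.7% and 13.7% of all genes tested. TCF7, a Wnt pathway factor, HMG20B, of the CoREST complex, and BBX changed on the log2 scale by 0.68 (adjusted p = 0.00306), 0.48 (adjusted p = 0.00826) and 0.47 (adjusted p = 0.0498). TOX2, SSRP1, of the histone chaperone FACT, and CIC had -0.46 (adjusted p = 0.00848), -0.32 (adjusted p = 0.00521) and -0.26 (adjusted p = 0.0423). Linker histones, which HMGN proteins compete with for chromatin, had 3 of 7 genes with values. H1FX had 0.38 (adjusted p = 0.0238), HIST1H1C -0.65 (adjusted p = 0.0156) and H1F0 0.23 (adjusted p = 0.275). The study enriched mRNA on magnetic beads, and how far this step affected the linker histone values, or their absence, was not tested. Of 15 other architectural chromatin proteins, 0 were higher and 7 lower, with a median of -0.18, beside the same shares of all genes. STAG2, a cohesin subunit on chromosome X, had -0.65 (adjusted p = 0.0114), CBX5, heterochromatin protein 1 alpha, -0.62 (adjusted p = 0.00306) and SMC3, a cohesin subunit, -0.59 (adjusted p = 0.0143). HMGA proteins contribute to heterochromatin foci of senescent cells, which the study did not see in its knockdown clones by DAPI or H3K9me3 staining. Of the 8 senescence-associated heterochromatin factors, 0 passed, with a median of -0.05. Over all genes tested 28.4% passed.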

How the data were processed

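RNA-seq values of 4 libraries, 2 of PANC-1 and 2 of PZT-2, were re-analysed. Per the labels, the authors trimmed reads with Trim Galore 0.4.1 and estimated abundance with kallisto 0.43.0 and sleuth 0.29.0 on hg19. In the deposited file the estimated counts are multiplied by a constant for each library (1.16 and 0.935 for PANC-1, 1.03 and 1.01 for PZT-2), which was undone, so that 40.8% to 42.7% of low values of single-transcript genes became whole to within 0.01, against 0.915% to 2.39% as deposited. Counts were then rounded and summed per gene. The file also holds TPM and effective lengths per library. The deposited TPM was not used, and TPM was recomputed here from the recovered counts and the deposited effective lengths over the listed transcripts. The authors' own columns of sleuth effects, p-values and q-values were not used. Transcripts were assigned by the table's symbol (27049) or through their RefSeq accession (3925), and 103 with 0.0466% of the counts stayed unnamed.

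Genes reaching 5 counts in 2 or more libraries were tested with edgeR 4.0.16 (TMM, quasi-likelihood) in R 4.3.3, Benjamini-Hochberg over all genes or transcripts, threshold 0.05, and transcript usage with diffSpliceDGE. Normalized counts are scaled to the mean effective library, and errors are SD over 2 libraries. An exact permutation test of 2 against 2 libraries cannot pass the threshold, so none was run. Scripts were tested on simulated data. Alternatives used DESeq2 1.42.0 and limma 3.58.1 among others, and counting transcripts with a symbol in the table alone was added after the data were seen. Coordinates and sequences come from RefSeq GRCh38.p14 and GENCODE 29, not the build of the authors. Members, lists and the naming rule (all members with their tested transcripts, the H2A.Z genes, and up to 3 called genes in each direction with the largest change per list) were chosen with earlier results of these data known. Libraries of the control vectors described by the study are not analysed here.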

Additional observations from a re-analysis of the deposited data

How the results depend on the processing

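HMGB3 and HMGN2 kept their direction and their side of the threshold under all alternatives run on genes. Among transcripts, neither NM_005342 of HMGB3 nor NM_005517 of HMGN2 passed by edgeR. HMGA1 lost the call for the most abundant transcript alone and without PZT-2 replicate 2. HMGN1 passed under DESeq2 (adjusted p = 0.0486), a minimum of 10 counts in all 4 libraries (0.0411), both limma-trend fits (0.0189 and 0.0201), length-scaled counts (0.0384), the version 4 dispersion estimate (0.0459) and without PANC-1 replicate 1 (0.0423). HMGA2 ranged from -0.21 to 0.000959 with each library left out, and HMGB2 was 0.0155 for the most abundant transcript alone. The cause of these changes was not tested.

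Genes called were 2130 for the most abundant transcript alone and 1864 to 4682 with each library left out, the lowest with PZT-2 replicate 2 dropped, and 2305 with PZT-2 replicate 1 dropped. Members called were 2 to 5 with each library left out, 5 of them without PANC-1 replicate 1. Transcripts called were 1209 with at least 10 counts in all 4 libraries, 4400 by DESeq2 and 0 with each library left out, and the members' transcripts called were 2 and 5 in the first pair of these. Genes with changed usage were 0 to 8 with each library left out, and members with changed usage 0 to 1. No pairing of same-numbered libraries was seen (correlation of deviations over genes -0.0202), which cannot show that the libraries are unpaired. With the replicate block 3683 genes, 3 members, 0 transcripts and 2 genes with changed usage were called. HMGN5, at 5 to 13 recovered counts, was left out by the minimum of 10 counts in all 4 libraries. Depth was 12861486 to 15717581 counts per library.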
